A study of Mus musculus with 66 samples.

Results

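Neurons lacking most of their Dnmt3a mRNA were compared with neurons given a nontargeting hairpin. The comparison rests on 12 of the 66 RNA sequencing libraries of the series. The members are all 6 libraries labelled Dnmt3a shRNA and all 6 labelled nontargeting shRNA, 3 from female and 3 from male embryos in each arm. All cells were wildtype (WT) neurons from mouse embryos of stage E16.5, grown in culture and infected with lentivirus. The virus encoded a short hairpin RNA (shRNA), a transcript processed by the cell so that it lowers the matching mRNA. Infection ended on culture day 6, when the medium was exchanged, and lysis followed on culture day 10. The virus dose was meant to leave about 50% of the target. The remaining groups were no virus (6 libraries) and shRNA against 8 other chromatin and transcription regulators (48 libraries), which served here as further controls and as the base for the spread between libraries. The series asks how depletion of such regulators changes transcription in each sex.

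Wells were infected in triplicate, per the labels, and whether the wells of a group came from separate cultures is not stated, so the p-values measure the spread between these libraries, which may be partly technical. The labels name a single Dnmt3a shRNA treatment, so changes that follow from the loss of Dnmt3a and changes from other matches of the hairpin cannot be told apart. Total counts ranged from 16498188 to 66558546 over the 12 libraries. Xist, the RNA that coats the inactive X chromosome, was at 879 CPM or more in the 6 female libraries and at 2.47 CPM or less in the 6 male ones, as their labels say. CPM values are counts scaled to a common library size. Markers of excitatory neurons summed to between 854 and 1110 CPM in the Dnmt3a shRNA libraries and those of GABAergic interneurons to between 1520 and 2050 CPM, against 862 to 1050 CPM and 1870 to 2350 CPM in the nontargeting libraries. The interneuron sum was lower with Dnmt3a shRNA in all 6 pairs, and its part in the other results was not tested. Within that list, 5 of the 12 markers had a positive log2 fold change, and the median was −0.02. Of 10 microglial markers, 4 passed the filter on low counts and the whole microglial list summed to at most 2.79 CPM in the 12 libraries.

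DNMT3A places methyl groups on cytosines that were not methylated before, which distinguishes it from DNMT1, the enzyme that copies existing methylation after replication. In neurons it is known for depositing methylation outside CG dinucleotides during postnatal maturation. TET enzymes oxidise methylcytosine and so begin its removal. Because methylation is commonly tied to repression, but can also keep repressors away, RNA levels can be compared in either direction.

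The target was low in every library that received its hairpin. Dnmt3a (ENSMUSG00000020661.15, chr12:3806007-3914443 on the plus strand of GRCm38) was at 289, 412 and 323 CPM in nontargeting females and at 392, 394 and 429 CPM in nontargeting males. With Dnmt3a shRNA it was at 45.6, 120 and 75 CPM in females and at 83.8, 85.6 and 101 CPM in males. The 6 libraries lay below all 60 others of the series, which ranged from 194 to 429 CPM. The mean was 22.9% of the nontargeting mean, 23.5% in females and 22.3% in males, below the level the dose was meant to leave. On the log2 scale the fitted change was −2.15 (SE 0.0896, edgeR adjusted p = 8.7e-29). Paired by sex and replicate number, the log2 difference ranged from −1.78 in female pair 2 to −2.66 in female pair 1.

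**Figure D1:**
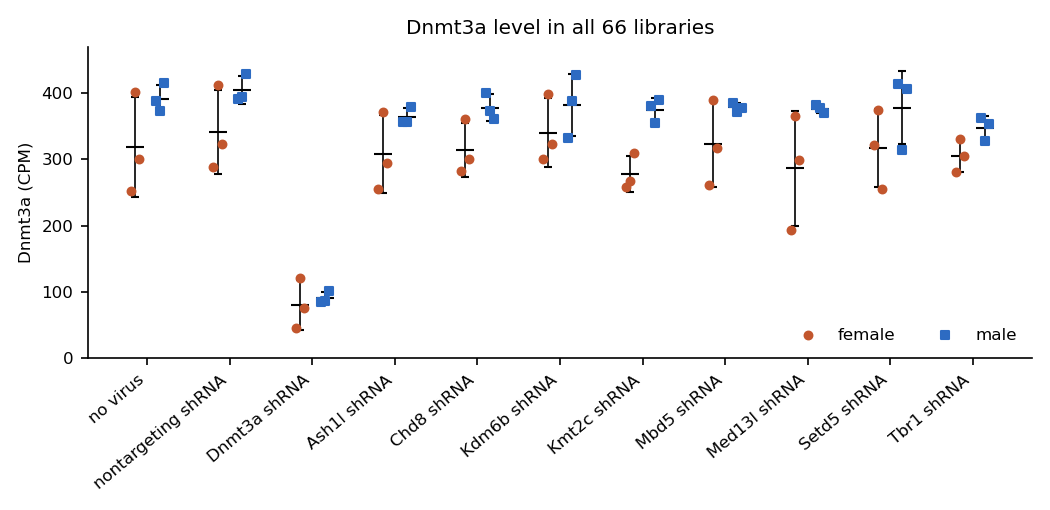
Dnmt3a level in CPM (vertical axis) in all 66 libraries, by treatment (horizontal axis). Circles are female and squares male libraries, and black bars give the mean ± SD of 3 libraries. The 6 Dnmt3a shRNA libraries lie between 45.6 and 120 CPM and the other 60 between 194 and 429 CPM.

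Other genes of the methylation machinery were examined next. Across all genes, 1282 of 16145 passed an adjusted p of 0.05 (7.94%), 505 of them higher (3.13%) and 777 lower (4.81%) with Dnmt3a shRNA. In a list of 24 writers, erasers and helpers of DNA methylation, 21 were tested and 3 passed (14.3%, against 7.94% of all genes). Of these, 1 was higher and 2 were lower, and the median log2 fold change of the list was 0.01 against 0.003 over all genes. One of the 3 was Dnmt3a itself. The maintenance enzyme Dnmt1 had a log2 fold change of −0.04 (SE 0.0589, edgeR adjusted p = 0.769). Its mean was 80.3 CPM against 82.5 CPM. Dnmt3b, the other de novo enzyme, was rare, at 0.934 against 0.829 CPM. Tet1, Tet2 and Tet3 had log2 fold changes of 0.05, 0.01 and 0.12, and none of these passed.

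The other 2 members that passed were Smug1 and Uhrf1. Smug1, a DNA glycosylase that removes uracil and oxidised pyrimidines, rose from a mean of 27.5 to 37.0 CPM (log2 fold change 0.43, SE 0.0948, edgeR adjusted p = 0.00131). Its mean was higher still with Ash1l shRNA (43.3 CPM) and Tbr1 shRNA (38.5 CPM), and below 37.0 CPM in the remaining shRNA groups. Uhrf1, which guides DNMT1 to newly replicated DNA, fell by 1.0 on the log2 scale (edgeR adjusted p = 0.0283), but from a mean of only 1.13 CPM. The Uhrf1 call was not present against no virus (edgeR adjusted p = 0.594), and it was lost in 5 of the 12 fits that each left out 1 library. Among 15 methyl-DNA binding proteins and their partners, 0 passed the edgeR test, beside 7.94% of all genes.

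The genes that moved most were few and the typical change was small. The median size of a called change was 0.38 on the log2 scale for genes that rose and 0.40 for genes that fell. At least 1.5-fold changes were found for 112 of the 505 higher and 166 of the 777 lower genes, and at least 2-fold changes (1 or more on the log2 scale) for 27 and 31. Genes that fell were the more abundant, with a median of 52.9 CPM against 24.7 CPM for genes that rose. In 439 of the 505 higher genes and in 721 of the 777 lower ones, all 6 pairs of libraries had the sign of the fitted change. The 6 libraries of the 2 arms did not overlap for 82 of the higher genes called (101 of all genes tested, 0.626%) and for 158 of the lower (177, 1.10%).

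The 6 genes with the smallest p-values after Dnmt3a had all fallen. Abhd13, which encodes an alpha/beta hydrolase domain protein, lay between 50.8 and 61.1 CPM in the 6 nontargeting libraries and between 28.3 and 35.0 CPM in the 6 Dnmt3a shRNA libraries. It fell by 0.84 on the log2 scale (SE 0.0651, edgeR adjusted p = 2.5e-15). The arms were clearly apart, and the SD within the Dnmt3a shRNA arm was 2.37 CPM. Vat1, a vesicle amine transport protein homologue, was at 180, 231 and 168 CPM in nontargeting females and at 44.9, 141 and 91.5 CPM with Dnmt3a shRNA. In males it went from 218, 194 and 198 CPM to 79.0, 89.9 and 80.4 CPM. The fall of 1.21 (SE 0.103, edgeR adjusted p = 1.3e-13) was deepest in female pair 1. Vat1 was also below all 48 libraries of other shRNA, which ranged from 162 to 357 CPM.

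Of the remaining 4 genes in that set, Csnk1e, a casein kinase of the circadian clock, fell by 0.65, from a mean of 200 to 128 CPM. Ncoa4, the receptor that delivers ferritin to autophagy, fell by 0.60, from 43.6 to 28.7 CPM. Ubfd1, a ubiquitin-family domain protein, fell by 0.64, from 191 to 123 CPM. In none of these genes did the arms overlap. Cd99l2, a membrane glycoprotein of the CD99 family, fell in all 6 pairs, by 0.72 to 1.40 on the log2 scale. Cd99l2, Abhd13 and Ncoa4 were low in some other groups as well. Ncoa4 averaged 21.2 CPM with Med13l shRNA, against 28.7 CPM with Dnmt3a shRNA. Abhd13 averaged 29.3 CPM with Med13l shRNA, against 31.7 CPM with Dnmt3a shRNA. Cd99l2 averaged 92.2 CPM with Chd8 shRNA and 96.1 CPM with Med13l shRNA, against 96.6 CPM with Dnmt3a shRNA. The difference between these knockdowns was not tested.

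By size, the largest decrease after Dnmt3a among genes of at least 1 CPM on average with all 6 pairs lower was in Scrt1, a zinc finger repressor of the Snail family that is specific to neurons. It was at 57.5, 74.8 and 64.9 CPM in nontargeting females and at 91.2, 87.4 and 91.1 CPM in nontargeting males. With Dnmt3a shRNA it was at 11.1, 37.7 and 24.3 CPM in females and at 29.9, 28.2 and 30.6 CPM in males. The arms did not overlap, and the fall was 1.57 (SE 0.201, edgeR adjusted p = 8.8e-08). Scrt1 was lower still with Chd8 shRNA, where its mean was 18.0 CPM.

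The 14 largest decreases were selected by size and by a fall in all 6 pairs, and so are described only. Acan, which encodes aggrecan of the perineuronal net, had means of 48.5 and 91.0 CPM with Dnmt3a and nontargeting shRNA, but its nontargeting values alone ran from 14.3 to 177 CPM. Its log2 fold change of −1.15 therefore rested on the pairing (edgeR adjusted p = 0.0343), and the call was lost in 7 of the 12 fits that left out 1 library. Wif1, a secreted Wnt inhibitor, fell by 1.26, from 29.2 to 14.6 CPM. Pthlh, a parathyroid hormone-like peptide, fell by 1.26, from 16.8 to 7.96 CPM. Alkal2, a ligand of the ALK receptor, fell by 1.40, from 7.44 to 3.14 CPM. Tgfbr2, a receptor for TGF-beta, fell by 1.01, from 3.12 to 1.54 CPM. All 6 pairs were lower for each of these genes, as their choice requires, and the arms overlapped in each. Ppp1r1c, an inhibitory subunit of protein phosphatase 1, fell by 1.54, and Fam43a by 1.11. Gpnmb, a transmembrane glycoprotein, fell by 1.28. In female pair 1 the Gpnmb difference was −4.31, from 2 counts in the Dnmt3a shRNA library, and without that library Gpnmb fell by 1.13 (edgeR adjusted p = 0.0178). Mybpc1, Arhgap36, Fgl2 and Sowahb completed the set, with falls between 1.0 and 1.31.

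**Figure D2:**
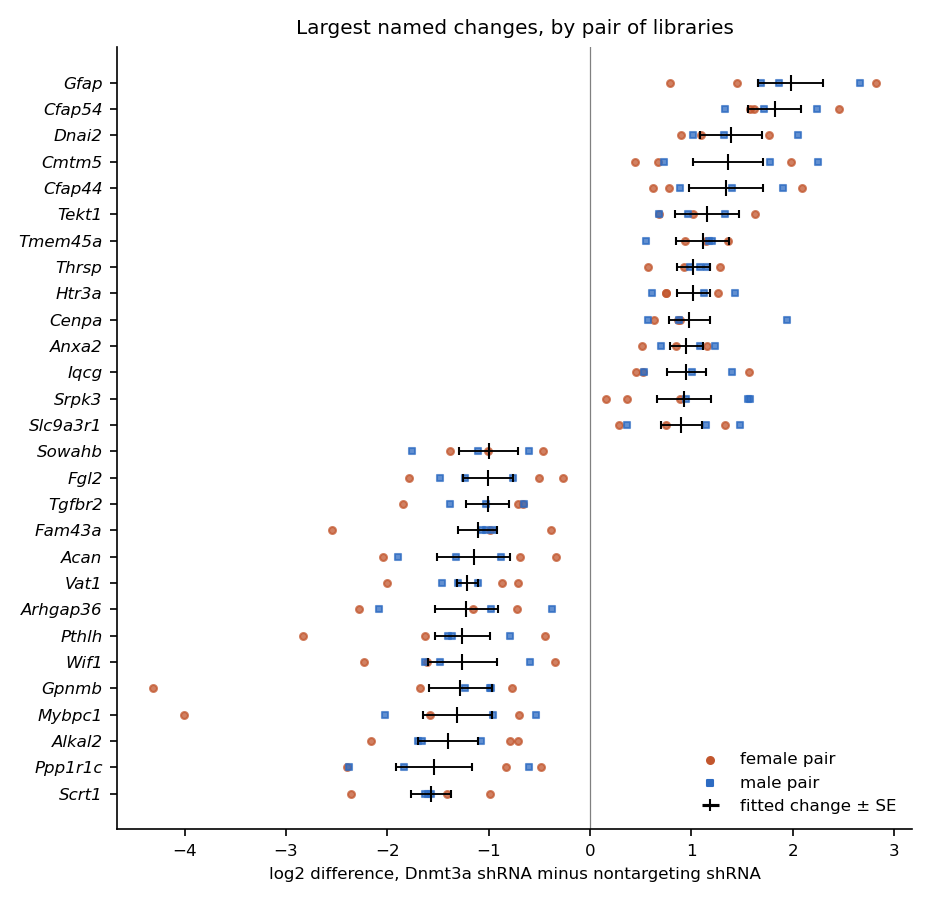
Log2 difference between Dnmt3a shRNA and nontargeting shRNA (horizontal axis) for the 14 largest called increases and the 14 largest called decreases (vertical axis). Each circle is a female and each square a male pair of libraries with the same replicate number, and the black mark gives the fitted change ± SE. Every pair lies on the side of its gene's fitted change, as the choice of the genes requires, and female pair 1 holds the extreme value of many genes, such as −4.31 for Gpnmb.

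Among increases chosen by the same rule, Gfap, the intermediate filament protein of astrocytes, was the largest. It was at 12.7, 4.69 and 10.1 CPM in nontargeting females and at 5.50, 9.37 and 6.48 CPM in nontargeting males. With Dnmt3a shRNA it was at 89.7, 8.18 and 27.7 CPM in females and at 35.1, 34.1 and 21 CPM in males. All 6 pairs were higher, as the rule requires, by 0.79 to 2.82 on the log2 scale. Dnmt3a shRNA female library 2 nonetheless lay within the nontargeting range. The fitted rise was 1.98 (SE 0.321, edgeR adjusted p = 1.5e-05), and 1.81 without female library 1. Mean Gfap in the 8 other shRNA groups lay between 2.31 CPM (Chd8) and 13.7 CPM (Tbr1).

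In a bulk sample, more cells of a type and more RNA per cell cannot be told apart, so the astrocyte list is given whole. Of 10 astrocyte markers, 2 rose (Gfap and Aldh1l1, a folate enzyme) and 1 fell (Slc1a2, the glutamate transporter GLT-1). That is 30% called, against 7.94% of all genes (3.13% higher), and the median log2 fold change was 0.32. Aldh1l1 rose by 0.61, from 16.4 to 25.6 CPM (edgeR adjusted p = 0.0277), with its call lost in 5 of the 12 fits that left out 1 library. Slc1a2 fell by 0.35, from 261 to 203 CPM, with its call lost in 3 of those fits. Aqp4, the water channel of astrocyte endfeet, was at 11.7 against 11.5 CPM. The list summed to between 381 and 596 CPM with Dnmt3a shRNA and to between 364 and 534 CPM with nontargeting shRNA, so the arms overlapped. Radial glial markers had 0 of 8 called by edgeR, beside 7.94% of all genes, and so few genes decide nothing. Their median was −0.04, with summed levels of 188 to 973 CPM against 181 to 492 CPM. That sum was carried by Fabp7, a fatty acid binding protein of radial glia and astrocytes, at 325 against 183 CPM (log2 fold change 0.69, edgeR adjusted p = 0.056). The highest Gfap, astrocyte and radial glial sums were all in female library 1. Their part in the other results was not tested.

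Genes of the motile cilium had the largest share of members called higher among the lists examined. Motile cilia are beating, microtubule-based projections, found in the brain on ependymal cells, and their parts include axonemal dyneins, radial spokes, tektins and the transcription factor FOXJ1. The list of 81 such genes was drawn up after values had been seen, so its counts describe these libraries and support nothing further. Of 75 members in the table, 70 passed the filter on low counts. Of these, 22 rose and 0 fell (31.4% called, against 7.94% of all genes). In all, 59 of the 70 had a positive log2 fold change, and the median was 0.48. The list summed to 296, 320 and 307 CPM in nontargeting females, to 274, 287 and 284 CPM in nontargeting males and to between 281 and 354 CPM without virus. With Dnmt3a shRNA it summed to 471, 351 and 352 CPM in females and to 341, 344 and 372 CPM in males. The sums of the 6 Dnmt3a shRNA libraries lay above those of all 6 nontargeting libraries, but not above the highest library without virus.

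The individual members were mostly rare transcripts. Cfap54, a protein of the central pair of microtubules, was at 1.57, 1.55 and 1 CPM in nontargeting females and at 0.893, 1.95 and 1.36 CPM in nontargeting males. It was at 8.96, 4.74 and 3.22 CPM with Dnmt3a shRNA in females and at 4.46, 4.98 and 4.64 CPM in males. The arms did not overlap, and Cfap54 rose by 1.82 (SE 0.266, edgeR adjusted p = 1.0e-06). Cfap54 averaged 4.79 CPM with Chd8 shRNA. Means with Chd8 shRNA were also above those of nontargeting shRNA for Drc3 (16.4 CPM), Iqcg (5.76 CPM), Tekt1 (1.8 CPM), Dnai2 (1.2 CPM) and the transport gene Wdpcp (19 CPM), but not for Foxj1 (3.73 CPM). The Dnmt3a and Chd8 knockdowns were not tested against each other.

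Drc3, a subunit of the nexin-dynein regulatory complex, rose by 0.86, from a mean of 6.93 to 12.9 CPM (edgeR adjusted p = 4.2e-08). Dnai2, a dynein intermediate chain, rose by 1.39, from 0.701 to 1.82 CPM. Iqcg, another part of the nexin-dynein regulatory complex, rose by 0.95, from 3.25 to 6.30 CPM. Tekt1, a tektin, rose by 1.15 (1.0 and edgeR adjusted p = 0.0636 without Dnmt3a shRNA female library 1). The master regulator Foxj1 rose by 0.50, from 3.74 to 5.41 CPM (edgeR adjusted p = 0.0487), and its call was lost in 8 of the 12 fits that left out 1 library. Spef2, a central pair protein, had the largest fold of the list (2.16, SE 0.557, edgeR adjusted p = 0.00723). It was at 0.951 against 0.187 CPM, and without Dnmt3a shRNA female library 1, its highest at 2.78 CPM, the call was lost (1.82, edgeR adjusted p = 0.0571). Without that library 11 list members were called, and 13 without nontargeting female library 1. The count was 13 with no virus as control, 12 with a stricter filter on low counts and 8 without the replicate block.

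Members of the transport system that builds all cilia, motile or not, also rose. A second list, again drawn up after values had been seen, held 56 genes of intraflagellar transport (IFT), the BBSome and the transition zone. All 53 in the table were tested, and 14 rose and 0 fell (26.4% called, against 7.94% of all genes). In all, 48 were positive and the median was 0.15. Their summed level was 1350 to 1450 CPM in nontargeting females and 1440 to 1680 CPM with Dnmt3a shRNA. In males it was 1300 to 1370 CPM and 1460 to 1580 CPM. The arms did not overlap in males and overlapped slightly in females. Wdpcp, an effector of planar cell polarity, rose by 0.58, from 8.46 to 13 CPM (edgeR adjusted p = 1.1e-04). Ift80 and Ift81, subunits of the IFT-B complex, rose by 0.48 and 0.49. Dync2li1, a light intermediate chain of the retrograde motor, rose by 0.46, with no overlap between the arms. The count was between 12 and 16 when any 1 of the 12 libraries was left out, and it was 4 without the replicate block. With Med13l shRNA the means of Ift81 (71.3 CPM) and Dync2li1 (24.6 CPM) were above those with Dnmt3a shRNA (62.5 and 23.1 CPM). Those of Ift80 (17.3 against 18.1 CPM) and Wdpcp (10.3 against 13 CPM) were below. The difference between these knockdowns was not tested.

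**Figure D3:**
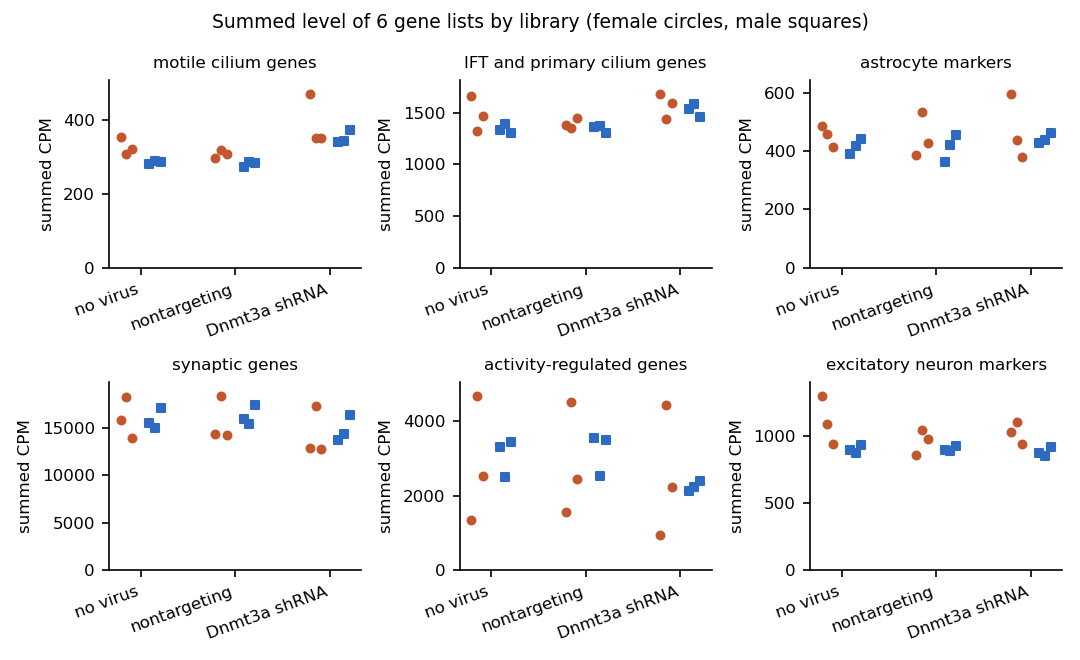
Summed level in CPM (vertical axes, each from 0) of 6 gene lists in the 18 libraries of no virus, nontargeting shRNA and Dnmt3a shRNA (horizontal axes). Circles are female and squares male libraries, in order of replicate number. Motile cilium genes sum to 341 to 471 CPM with Dnmt3a shRNA against 274 to 320 CPM with nontargeting shRNA, while activity-regulated genes sum to 2130 to 2390 CPM against 2530 to 3540 CPM in males and overlap between the arms in females.

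Promoter sequences are shown for 4 of these genes because they differ in letters that bear on cilia and on methylation. Regulatory factor X (RFX) proteins are known to act on cilium genes through a motif called the X-box. Its letters, searched on both strands as GTNNCCA followed at once by TNGNAAC, were found in the 300-base RefSeq promoter window of 95 of 12436 tested genes (0.764%), of 7 of 403 genes called higher (1.74%), of 9 of 612 called lower (1.47%) and of 2 of the 17 called motile cilium genes with a window. That is 11.8% of the called ones, and among all 59 tested motile cilium genes with a window, 4 held the letters (6.78%). The 2 called ones were Cfap44 and Cfap45, whose 250 bases before the start are printed 5′ to 3′ with the X-box letters in capitals. In both, the capitals match the searched letters when read on the opposite strand. The match ends 13 bases before the start in Cfap44 (chr16:44394549-44394798, plus strand, GRCm38.p6) and 5 bases before it in Cfap45 (chr1:172520880-172521129, plus strand).
Cfap44: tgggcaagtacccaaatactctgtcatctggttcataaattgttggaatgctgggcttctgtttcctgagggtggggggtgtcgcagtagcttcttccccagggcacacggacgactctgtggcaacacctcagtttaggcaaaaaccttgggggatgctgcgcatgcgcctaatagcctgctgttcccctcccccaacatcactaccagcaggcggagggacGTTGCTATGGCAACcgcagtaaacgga
Cfap45: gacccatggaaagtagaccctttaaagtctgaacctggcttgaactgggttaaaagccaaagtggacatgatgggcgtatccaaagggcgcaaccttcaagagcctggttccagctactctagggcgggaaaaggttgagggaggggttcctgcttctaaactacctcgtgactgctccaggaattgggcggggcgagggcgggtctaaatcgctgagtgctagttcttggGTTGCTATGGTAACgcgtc

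Cfap44 rose by 1.34 (0.737 to 2.02 CPM, edgeR adjusted p = 0.0124) and Cfap45 by 0.88 (1.42 to 2.71 CPM, edgeR adjusted p = 0.0169). Neither passed against no virus (edgeR adjusted p = 0.173 and 0.0605). The Cfap45 arms did not overlap, but its call was lost without Dnmt3a shRNA female library 1. A match of letters is a description and shows no binding.

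The second pair of promoters shows windows with few CG dinucleotides, the main substrate of DNA methylation, which stand in capitals. Gfap (chr11:102897201-102897450, minus strand) holds 2 in the 250 bases printed and Spef2 (chr15:9748869-9749118, minus strand) holds 4. The median over all tested genes with a window was 21 in 300 bases, counted in the window of each gene that held the most.
Gfap: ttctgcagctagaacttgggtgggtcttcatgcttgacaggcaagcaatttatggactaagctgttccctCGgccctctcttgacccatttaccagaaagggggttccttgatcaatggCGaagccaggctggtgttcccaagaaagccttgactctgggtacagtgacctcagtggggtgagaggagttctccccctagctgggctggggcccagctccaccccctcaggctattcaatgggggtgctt
Spef2: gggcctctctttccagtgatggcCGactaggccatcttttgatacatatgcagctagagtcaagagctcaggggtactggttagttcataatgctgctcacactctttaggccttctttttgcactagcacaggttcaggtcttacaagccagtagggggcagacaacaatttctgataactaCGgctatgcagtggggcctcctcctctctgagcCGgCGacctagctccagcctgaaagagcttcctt

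Low CG content was frequent in the motile cilium list as a whole. Of its 59 tested members with a promoter window, 29 had an observed-to-expected CG ratio below 0.6 (49.2%), and 10 of the 17 called ones did (58.8%), against 29.7% of all tested genes. Genes called higher across the whole table had no such tilt, with 26.3% below 0.6 and a median ratio of 0.78, against 0.76 over all. Genes called lower had 18.6% below 0.6 and a median of 0.81. Methylation itself was not measured in these libraries.

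Other increases belonged to no list. Htr3a, the serotonin-gated channel subunit, rose by 1.02, from 8.96 to 18.7 CPM (edgeR adjusted p = 6.5e-06). Thrsp, a regulator of fatty acid synthesis, rose by 1.02, from 5.85 to 12 CPM. Anxa2, a membrane-binding annexin, rose by 0.95, from 6.64 to 13.1 CPM. In each of the 3, all 6 pairs were higher, as the choice of these genes requires, while the arms overlapped. Htr3a was also high with Ash1l shRNA, at a mean of 22.2 CPM. Slc9a3r1, a scaffold protein of membrane transporters, rose by 0.90, and Cenpa, the centromeric histone variant, by 0.98. Cmtm5, Tmem45a and Srpk3 rose by 0.93 to 1.36 from means of 1.25 CPM or less, and the Cmtm5 call was lost without Dnmt3a shRNA female library 1 (edgeR adjusted p = 0.0646).

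Of 44 synaptic genes tested, 11 fell and 0 rose, with a median log2 fold change of −0.08. The list's 25.0% of members called stood beside 7.94% of all genes, and 12 of the 44 had a positive fold change. Syn1, a synaptic vesicle phosphoprotein, was at 254, 469 and 307 CPM in nontargeting females and at 170, 426 and 263 CPM with Dnmt3a shRNA. In males it went from 372, 381 and 405 to 246, 277 and 357 CPM. It fell by 0.35 (SE 0.0794, edgeR adjusted p = 0.00166). The change was smaller than the differences between female libraries of different replicate number, and the arms overlapped, while all 6 pairs were lower.

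Synaptic genes that fell were found on both sides of the synapse. On the presynaptic side, the calcium sensor Syt1 fell by 0.42 (1190 to 897 CPM), the active zone proteins Bsn and Rims1 by 0.52 and 0.39, the vesicle priming factor Unc13a by 0.29 and the complexins Cplx1 and Cplx2 by 0.49 and 0.29. On the postsynaptic side, the scaffold Shank3 fell by 0.40 (edgeR adjusted p = 0.00105), the NMDA receptor subunit Grin1 by 0.33 and the adhesion protein Nlgn2 of inhibitory synapses by 0.24. Bsn and Cplx1 lost their call without Dnmt3a shRNA female library 1, and Shank3 was not called when counts were corrected for GC content and length. The number of synaptic genes called was 3 without Dnmt3a shRNA female library 1, 5 without male library 1, 7 without nontargeting female library 1 or male library 3, and 0 without the replicate block.

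Of 38 ion channel genes tested, 7 fell and 1 rose (21.1% called, against 7.94% of all genes), 7 had a positive fold change, and the median was −0.20. Scn3b, an auxiliary subunit of voltage-gated sodium channels, was at 211 to 244 CPM in the nontargeting libraries and at 258 to 363 CPM with Dnmt3a shRNA. The arms did not overlap, and it rose by 0.45 (SE 0.0703, edgeR adjusted p = 4.0e-06). Scn3b averaged 406 CPM with Ash1l shRNA, against 311 CPM with Dnmt3a shRNA, and less than the latter in the remaining shRNA groups. Scn1a, a pore-forming sodium channel subunit, fell by 0.47. Cacnb4, an auxiliary calcium channel subunit, fell by 0.51 (95.8 to 67.4 CPM), and Cacna1b, the pore of N-type calcium channels, by 0.32. The potassium channels Kcnh1 and Kcnj3 fell by 0.34 and 0.52 and the pacemaker channel Hcn2 by 0.35. The falls numbered 1 without the replicate block, 18 when only the 12 libraries were fitted and between 5 and 9 when any 1 library was left out.

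Activity-regulated genes had lower levels in most members, while the share called was near that of all genes. Of 30 genes induced by calcium entry, 2 fell and 0 rose (6.67% called, against 7.94% of all genes). In that list 2 had a positive fold change, and the median was −0.42 against 0.003 over all genes. Fos was at 4.12, 144 and 58.3 CPM in females and at 61.7, 54.1 and 55.3 CPM in males with Dnmt3a shRNA. The nontargeting values were 27.0, 140 and 60.5 CPM in females and 129, 81.4 and 104 CPM in males. The male arms did not overlap, while female libraries of different replicate number differed by more than the arms did. The log2 fold change of −0.82 did not pass (SE 0.366, edgeR adjusted p = 0.174). Npas4, another early factor, had −0.78 (edgeR adjusted p = 0.119). The genes called were Dusp4, a phosphatase of MAP kinases, which fell by 0.82 (66.2 to 40.3 CPM), and Sik1, a salt-inducible kinase, which fell by 0.48. The summed level of the list was lower in all 6 pairs, at 2130 to 2390 CPM against 2530 to 3540 CPM in males, without overlap, and at 952 to 4440 CPM against 1560 to 4520 CPM in females. The part of these genes and of the interneuron markers in the synaptic and channel results was not tested.

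Imprinted genes, whose monoallelic expression depends on inherited DNA methylation, had 5 of 42 tested members lower and 1 higher, 14.3% called against 7.94% of all genes, with a median of −0.10. Impact, an inhibitor of the kinase GCN2, fell by 0.69, from 149 to 93.8 CPM (edgeR adjusted p = 2.9e-05). The growth factor scavenger Igf2r fell by 0.33 and the receptor adaptor Grb10 by 0.31. Magel2, a ubiquitin ligase regulator, fell by 0.53 from 10.4 CPM. Trappc9 fell by 0.30 while Peg13, a noncoding RNA gene within Trappc9, rose by 0.27. These overlap in the genome, and how the counting treated strand and overlap is not given in the sources used here, so their values are uncertain. The number of imprinted genes called lower was 3 without Dnmt3a shRNA female library 1, nontargeting female library 1 or nontargeting male library 3, 2 without Dnmt3a shRNA male library 1 or without the block, 3 with no virus as control or with upper quartile scaling, and 11 when only the 12 libraries were fitted.

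A further pair of gene groups is commonly examined when methylation is lost. Of 14 germline genes that promoter methylation silences in somatic cells, 0 passed the edgeR test, and the median was 0.01. Of all genes 7.94% were called, 3.13% higher, so a count of 0 among so few genes decides nothing. Dazl, an RNA-binding protein of germ cells, was at 2.36 against 2.45 CPM. Another 11 of the 25 genes on that list did not pass the filter on low counts. Of 54 clustered protocadherins, adhesion genes chosen through promoter methylation, 1 fell (Pcdhb22, by 0.25, edgeR adjusted p = 0.0457) and 0 rose, which is 1.85% called. Protocadherins of a cluster are near copies of each other, and the Pcdhb22 call was lost in 11 of the 12 fits that left out 1 library. Only 1 of 39 Hox genes could be tested, and 0 were called.

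Stress and growth lists are given beside the 7.94% of all genes called. Of 20 p53 target genes, 4 rose and 0 fell (20% called), with a median of 0.06. They were Ccng1, a cyclin of the damage response (0.53, from 146 to 213 CPM), Zmat3, an RNA-binding protein (0.48), Polk, a translesion polymerase (0.43), and Aen, a nuclease (0.29). Those 4 calls stood whichever of the 12 libraries was left out, and 0 stood without the replicate block. Some other shRNA groups had higher means than Dnmt3a shRNA. With Med13l shRNA, Ccng1 averaged 313 against 213 CPM, and with Tbr1 shRNA, Zmat3 averaged 175 against 174 CPM. Polk averaged 17.1 against 16 CPM with Chd8 shRNA, and Aen 87.2 against 80.6 CPM with Setd5 shRNA. The classic targets Cdkn1a and Mdm2 were at 136 against 129 CPM and at 30.4 against 31.5 CPM and did not pass. Of 20 integrated stress response genes, 1 fell (Vldlr, a lipoprotein and reelin receptor, by 0.62, edgeR adjusted p = 2.2e-07), which is 5.0% called. In that list 1 had a positive fold change and the median was −0.34. Of 24 cell cycle genes, the helicase subunits Mcm2 and Mcm5 fell (8.33% called). The Mcm2 call (edgeR adjusted p = 0.0414) was lost in 8 of the 12 fits that left out 1 library and was not present against no virus (edgeR adjusted p = 0.515). Of 24 cholesterol synthesis genes, Nsdhl, a sterol dehydrogenase, rose by 0.32, and Insig1, a brake on sterol synthesis, fell by 0.44 (8.33% called). Of 17 interferon-stimulated genes, 0 passed the edgeR test.

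**Figure D4:**
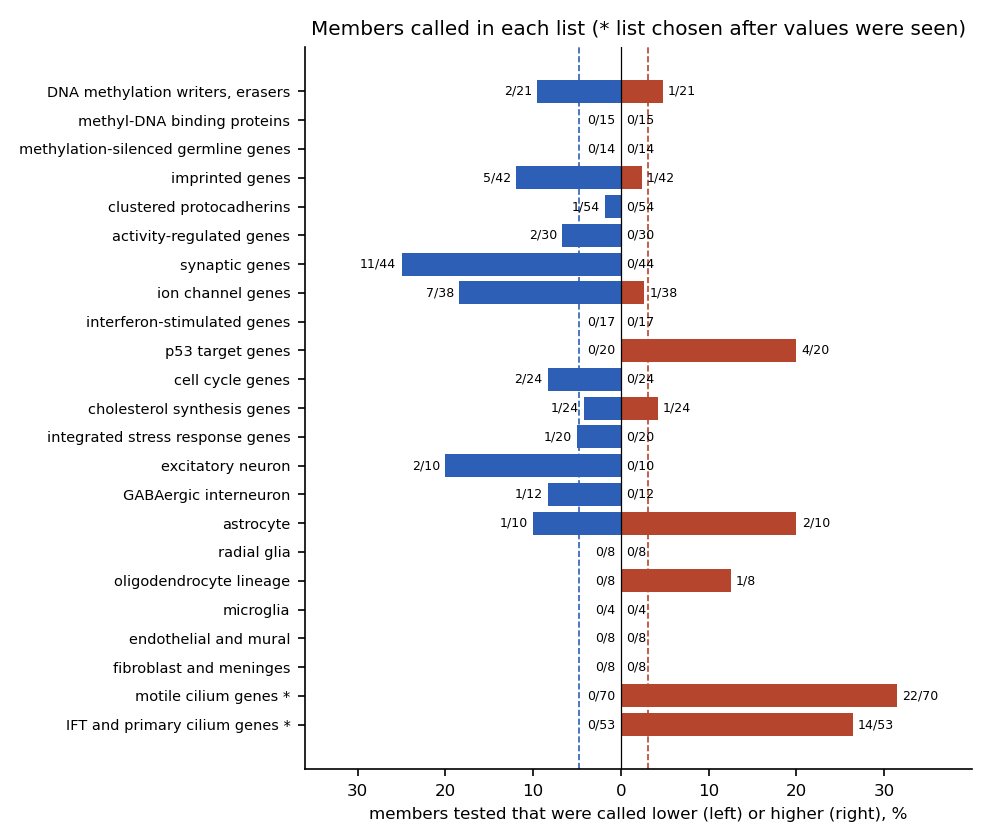
Share of tested members called higher (right, red) or lower (left, blue) in each gene list (horizontal axis, percent), with counts beside the bars. Dashed lines give the share among all 16145 genes tested, 3.13% higher and 4.81% lower. The motile cilium list has 22 of 70 higher and the synaptic list 11 of 44 lower.

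Other cell type markers are given beside the 7.94% of all genes called. Among 10 excitatory neuron markers 2 fell and 0 rose (20% called), among them the transcription factor Bcl11b, which fell by 0.32. Among 12 interneuron markers 1 was called (8.33%). It was Gad2, the synaptic enzyme that makes GABA, which fell by 0.57, from 339 to 230.0 CPM (edgeR adjusted p = 6.6e-04). Gad1 had −0.26 (edgeR adjusted p = 0.0933). The interneuron list had 5 positive fold changes among its 12 members and a median of −0.02. Of 8 oligodendrocyte markers, 1 rose and 0 fell (12.5% called). No endothelial, mural, fibroblast, meningeal or microglial marker passed the edgeR test.

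The sexes were then compared, as a repeat in cultures that share no library. With females alone, 208 genes passed (1.29%), 45 higher (0.279%) and 163 lower (1.01%). With males alone, 235 passed (1.46%), 71 higher (0.440%) and 164 lower (1.02%). Of these, 137 were shared, 65.9% of the female and 58.3% of the male list, all in the same direction. These counts rest on the block and on single libraries. The female count was 43 without Dnmt3a shRNA female library 1 and 19 without the block, and the male count 81 without Dnmt3a shRNA male library 1 and 18 without the block, and the overlap was not recomputed there. The sign in the other sex was the same for 207 of the 208 female genes and for all 235 male genes. Abhd13 fell by 0.93 in females and 0.75 in males, and Cfap54 rose by 1.94 and 1.71. Scrt1 fell by 1.54 and 1.60. The test for a sex difference in the effect called 0 genes with edgeR (172 at an unadjusted p under 0.05) and 0 with DESeq2.

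The smallest p-values for a sex difference belonged to Prok2, Nr5a2, Stat5a and Xist, each with an edgeR adjusted p of 1. Prok2, a secreted peptide of the circadian system, was at 3.46, 0.931 and 2.21 CPM in nontargeting females and at 0.800, 0.669 and 0.877 CPM with Dnmt3a shRNA. Its log2 fold change was −1.29 in females and 0.41 in males. Nr5a2 and Stat5a averaged below 0.4 CPM in each arm. Xist gave a male effect of 2.43 from levels of 2.47 CPM or less, among them 2.47 CPM in Dnmt3a shRNA male library 2. None of the 4 was called.

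**Figure D5:**
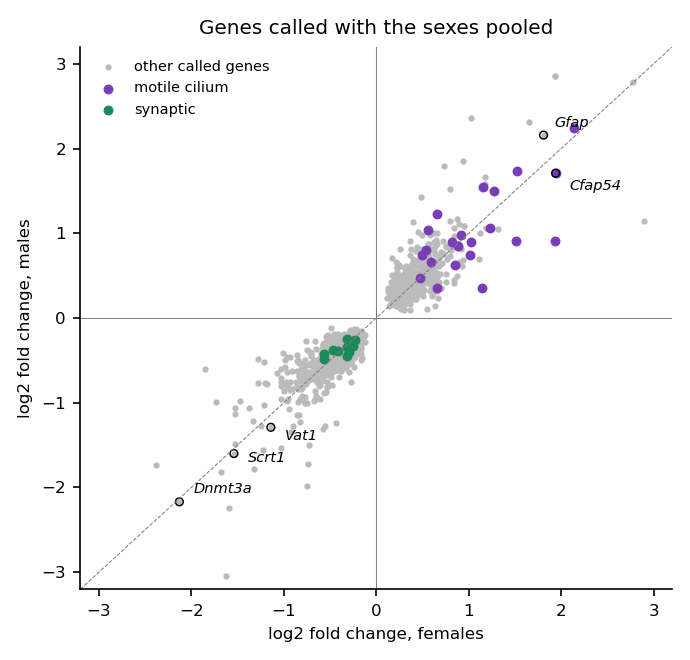
Log2 fold change in females (horizontal axis) against males (vertical axis) for genes called with the sexes pooled. Purple points are motile cilium genes, green points synaptic genes and circled points the 5 genes named. All 1282 genes have the same sign in both sexes, which pooling favours, 2 genes lie outside the axes, and the dashed line marks equal change.

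Other controls gave further views of the same 6 Dnmt3a shRNA libraries. Against no virus, 1259 genes passed (7.80%), 554 higher (3.43%) and 705 lower (4.37%). The nontargeting libraries themselves differed from no virus in 0 genes by edgeR (353 at an unadjusted p under 0.05). Against the mean of the 8 other shRNA groups, 2769 genes passed (17.2%), 1515 higher (9.38%) and 1254 lower (7.77%). In that comparison Vat1 fell by 1.58, Abhd13 by 0.76 and Scrt1 by 1.25. Gfap rose by 2.39, Slc9a3r1 by 1.48 and Cfap54 by 1.47. The same gene values against nontargeting shRNA were −1.21, −0.84 and −1.57 for the falls and 1.98, 0.90 and 1.82 for the rises. Of the 70 motile cilium genes, 38 were called against the other shRNA groups, counted in either direction, beside 17.2% of all genes. Dusp4 (edgeR adjusted p = 0.078), Cplx1 (0.251) and Slc1a2 (0.631) were not called there.

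Gene length was examined because neuronal DNA methylation is known for its link to long genes. The share of protein-coding genes that fell was 3.30% below 10 kb, 4.55% from 10 to 30 kb, 6.15% from 30 to 100 kb, 7.71% from 100 to 300 kb and 6.59% at 300 kb or more. The share that rose showed no such order, between 2.25% and 3.84%. The median log2 fold change was between −0.02 and 0.01 in all 5 classes. Longer genes were also more abundant, from a median of 13.6 CPM in the shortest class to 41.6 CPM in the longest, and the part of abundance in the share called was not tested. Genes that fell had a median span of 37.7 kb and genes that rose one of 26.6 kb, against 25.4 kb over all 14610 protein-coding genes tested.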

How the data were processed

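Polyadenylated RNA from 66 libraries was made into libraries with a stranded kit, per the labels' protocols. The authors deposited raw read counts per gene, and the submitters' processing notes name STAR, featureCounts and mm10. Versions and the annotation are not given in the sources used here. Rows without a symbol (18483 of 48716, 0.69 to 1.41% of counts) were left out, 149 repeated symbols were summed, and 6 columns of no sample used here were not used. Control columns named for a luciferase hairpin were matched to the nontargeting label as the one hairpin without a target. Low counts were mostly even (26.7% of values from 1 to 20 were odd), so counts were also tried halved. Replicates differed beyond sampling noise.

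The counts were fitted with edgeR 4.0.16 in R 4.3.3 (filterByExpr, 16145 genes; TMM, factors 0.874 to 1.06; robust quasi-likelihood F test; Benjamini-Hochberg over all genes, threshold 0.05). The model held treatment and a block of sex and replicate number (6 levels) over all 66 libraries, which share the estimate of spread. The labels give the numbers. Deviations from the group mean of same-numbered Dnmt3a and nontargeting libraries correlated at 0.451, 0.636 and 0.297 in females and 0.104, 0.133 and 0.235 in males. Libraries of unlike number gave −0.49 to −0.0112 in females and −0.157 to 0.0301 in males. Deviations within a group sum to 0, so the like and unlike values are not independent. The numbers were taken to pair the libraries, in males on small correlations. Effects per sex and their difference came from a fit of 22 groups with replicate number within sex. Standard errors derive from the test statistic. Pair differences are log2 CPM with a prior count of 2. The test was run on counts simulated from the fitted model itself. Such counts cannot check the pairing or whether the wells are independent.

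Named genes are Dnmt3a, the 14 largest increases and 14 largest decreases with a mean of at least 1 CPM and the same sign in 6 pairs, the 6 smallest p-values, the 6 smallest among genes called in the same direction against the other shRNA groups too, up to 4 called members of each list (all for the methylation lists) and the 4 smallest p-values for sex. Further list members, and genes outside the rule, were named after their values were seen. Members and lists were chosen with earlier results of these data known. Gene spans come from GENCODE M21 (GRCm38, the build mm10; 97.5% of genes matched by symbol) and promoters from RefSeq (GRCm38.p6, 250 bases before to 50 after the start). DESeq2 1.42.0, other scalings, filters, controls, a GC content and length correction and fits without single libraries were alternatives. Some results on list members are not reported here.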

Additional observations from a re-analysis of the deposited data

How the results depend on the processing

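The replicate block mattered most. Fitted with no replicate block, 329 genes were called against nontargeting shRNA in place of 1282 (all 329 among the 1282), 19 in females, 18 in males, 1228 against the other shRNA groups and 311 against no virus. Of the 96 named genes called in the pooled fit other than Dnmt3a, 32 kept and 64 lost their call without the pairing. With only the 12 libraries and the block, 2597 genes were called, 457 in females and 699 in males. DESeq2 with the block called 1545, 343 in females and 382 in males. Upper quartile scaling called 677 higher and 632 lower, against 505 and 777, and moved the median of all genes to 0.03. DESeq2 size factors, other filters on low counts and halved counts gave 1008 to 1369. Leaving out the male libraries labelled Setd5 replicate 1 and Kdm6b replicate 1, whose target genes go against their labels, gave 1653, and the GC and length correction, added after seeing the data, 1688 (819 higher, 869 lower).

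Leaving out 1 library gave 794 (without Dnmt3a shRNA female 1) to 1278 genes, 43 (without the same library) to 297 in females, where nontargeting female 1 or 3 left 71 or 122, and 81 to 240 in males, where Dnmt3a shRNA male 1 or 2 left 81 or 106 and nontargeting male 1, 2 or 3 left 112, 139 or 93. It gave 1835 to 2560 against the other shRNA groups and 713 to 1273 against no virus, the lowest each time without Dnmt3a shRNA female 1, and 0 for the sex difference. Of the 96 named genes, 21 lost their call without that library. The Dnmt3a change stayed between −2.25 and −2.06. No alternative reversed a named change in the pooled comparison. The cause of these shifts was not tested. Genes near 1 CPM have the largest counting error.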

Other observations

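Some genes outside the lists and the naming rule, chosen after their values were seen, also fell with Dnmt3a shRNA. Lgi1, a secreted synaptic protein, fell by 0.82 on the log2 scale (edgeR adjusted p = 1.5e-08), and Cntnap1, an axonal protein of the paranodal junction, by 1.0 (edgeR adjusted p = 3.5e-06). Nefh, the heavy neurofilament subunit, fell by 0.82 (edgeR adjusted p = 2.9e-04) and the axonal adhesion molecule L1cam by 0.53 (edgeR adjusted p = 2.6e-06).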
